A study of Mus musculus with 103 samples.

Results

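The chemokine ligand genes were taken as all genes on the array whose symbol starts with Ccl, Cxcl or Cx3cl followed by a number. The rule gave 33 of the 17097 genes that the array's annotation names, measured by 48 probe sets, and the probe set of the highest mean was used for the 11 members with more than 1. Chemokines are small secreted proteins that guide migrating leukocytes through G protein-coupled receptors, and their names follow the arrangement of conserved cysteines in the protein. Some are induced within hours by inflammatory signals, such as Cxcl1 and the monocyte chemoattractant proteins, while others are made constantly by an epithelium or a stroma, such as Ccl25 in the small intestine. Because the leukocytes they attract make chemokines themselves, both the cells of an organ and its resident macrophages are known sources.

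The series profiled mouse cells that carry Prom1 (Prominin-1, a surface glycoprotein found on stem and progenitor cells of several epithelia) and tumours from a study that traced such cells and targeted oncogenic lesions to them. The 40 sorted samples came from dissociated tissue, from which red blood cells and dead cells were removed before Prom1-positive cells were bound to anti-Prominin1 beads. They comprised kidney (4 samples), untreated liver (5), liver of DDC-treated mice (9), neonatal liver (3), lung (4), prostate (3), salivary gland (3), small intestine (3), stomach (2) and uterus (4). DDC is a compound used to injure bile ducts and provoke a ductular reaction in the liver. The 56 primary tumours were dissected without a sort and comprised hepatocellular carcinoma/cholangiocarcinoma (14), hepatoblastoma (2), prostatic adenocarcinoma (8), gastric adenoma (7), gastric adenocarcinoma (4), small intestinal adenoma of the duodenum (3), large intestinal adenoma of the colon (5), uterine carcinoma (3), bronchopulmonary adenocarcinoma (2) and squamous cell carcinomas of perineal (4), perioral (3) and periorbital (1) skin. Another 7 samples were metastases, each the single sample of its group. The labels give no genetic lesion, strain, sex or age, apart from the word neonatal. Sorted cells and tumours also differed in the sort and in the RNA kit (PicoPure against RNeasy), so tissue, sort and kit cannot be told apart where the 2 kinds are compared.

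All values are log2 intensities, and array medians lay between 3.82 and 4.24. The marker list of each labelled organ had its highest mean among sorted cells in that organ, for example 13.19 for gastric epithelium in stomach cells. Prom1 itself was low in untreated liver cells (2.64 to 4.24) and higher in the other 7 organs, with group means from 6.36 to 11.99. Macrophage markers were present in several sorted groups, with a mean over 13 genes from 4.31 in kidney to 9.38 in uterus. Actin signal at the 3′ end exceeded that at the 5′ end, as in partly degraded RNA, most in kidney (mean 1.72) and untreated liver cells (1.45), against 0.81 to 1.09 in the other 6 organs. Nothing in the labels ties the samples of a group to different mice, so each p-value reflects sample-to-sample spread that may be technical. In these bulk samples, fewer cells of a type and less RNA per cell cannot be told apart.

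**Figure D1:**
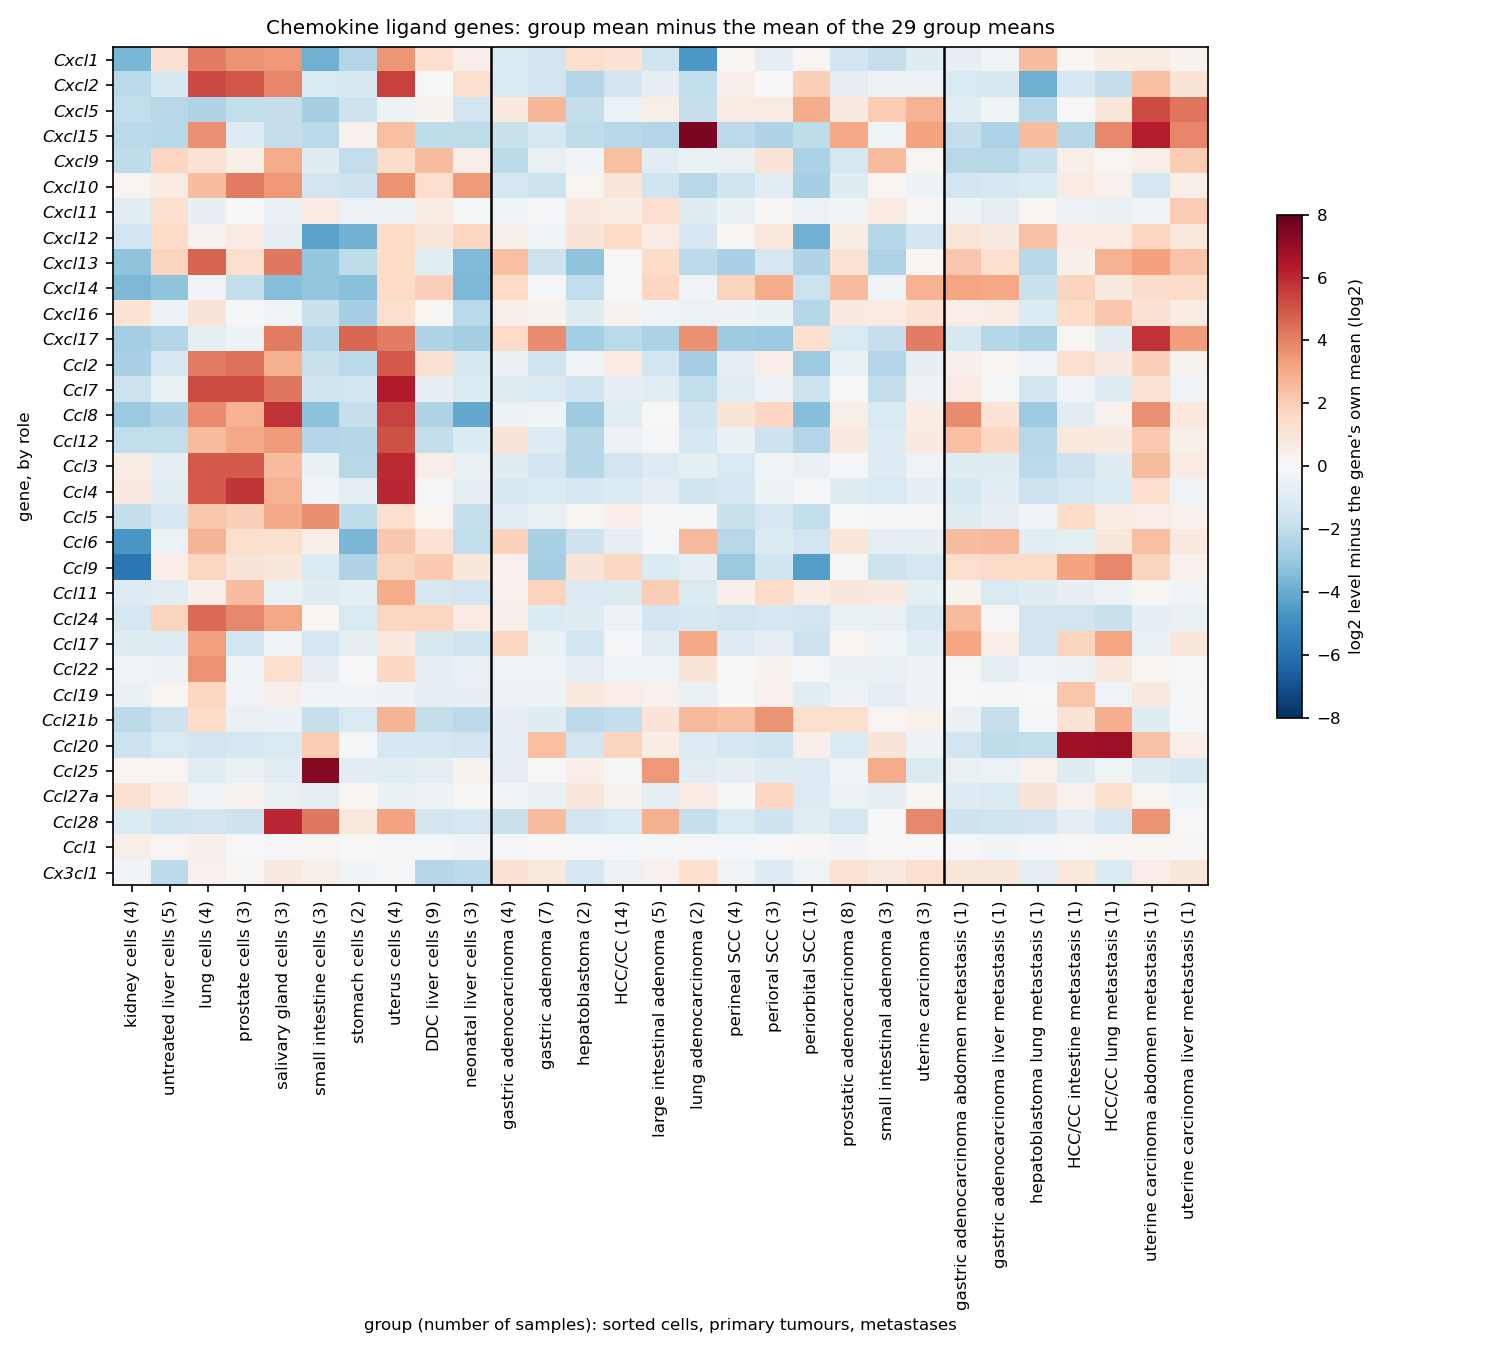
Heat map of the 33 chemokine ligand genes (rows, grouped by role) in the 29 groups (columns), where colour is the group mean minus the mean of the 29 group means of that gene on the log2 scale (HCC/CC, hepatocellular carcinoma/cholangiocarcinoma; SCC, squamous cell carcinoma; lung adenocarcinoma, the bronchopulmonary tumours). The rows of Ccl2, Ccl7, Cxcl1 and Cxcl2 are red in lung, prostate, salivary gland and uterus cells, and Ccl25 is reddest in small intestine cells (group mean 12.51).

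The members differed widely in how far they ranged over the 21 groups of at least 2 samples. Group means spanned 9.94 log2 units for Cxcl15, a neutrophil attractant of lung epithelium, from 3.24 in perioral squamous cell carcinoma to 13.18 in bronchopulmonary adenocarcinoma. They spanned 9.84 for Ccl8, 8.71 for Cxcl1 and 8.47 for Ccl25. The narrowest span was 0.68 for Ccl1, a Ccr8 ligand of activated T cells, whose 103 samples all lay between 2.76 and 4.09 and which passed the filter on low levels in none of the comparisons below.

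The sequence before the transcription start is shown for 4 inducible members, out of the 5 that held the consensus marked below. Cxcl1, Cxcl2 and Cxcl10 were called higher in the same 3 sorted organs (prostate, salivary gland and uterus). Ccl20 had the widest range within any tumour group (3.92 to 11.93). Ccl6, Ccl8, Ccl9 and Ccl12 were called higher in those 3 organs too, and of these only Ccl9 held a match. Capitals mark matches to the consensus of NF-kB, the transcription factor that inflammatory signals activate, on either strand. The sequences are RefSeq's on build GRCm38.p6, each 250 bases 5′ to 3′ on the gene's strand, from chr5:90890995-90891244 (plus strand) for Cxcl1, chr5:90903649-90903898 (plus) for Cxcl2, chr5:92348890-92349139 (minus) for Cxcl10 and chr1:83116516-83116765 (plus) for Ccl20, all upstream of the first exon.
Cxcl1: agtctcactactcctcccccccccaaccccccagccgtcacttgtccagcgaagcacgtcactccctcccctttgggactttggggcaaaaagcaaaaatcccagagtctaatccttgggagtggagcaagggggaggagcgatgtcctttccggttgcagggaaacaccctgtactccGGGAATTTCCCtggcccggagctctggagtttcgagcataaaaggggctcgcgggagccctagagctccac
Cxcl2: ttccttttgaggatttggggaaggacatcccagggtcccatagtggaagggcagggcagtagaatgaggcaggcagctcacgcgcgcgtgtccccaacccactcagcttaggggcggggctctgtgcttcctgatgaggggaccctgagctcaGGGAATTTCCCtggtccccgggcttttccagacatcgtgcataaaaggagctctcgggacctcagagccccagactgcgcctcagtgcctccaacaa
Cxcl10: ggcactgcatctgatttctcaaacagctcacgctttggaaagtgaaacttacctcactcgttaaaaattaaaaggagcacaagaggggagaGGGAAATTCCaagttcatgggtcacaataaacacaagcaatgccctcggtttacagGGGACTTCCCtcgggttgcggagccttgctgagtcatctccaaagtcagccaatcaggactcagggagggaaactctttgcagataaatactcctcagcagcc
Ccl20: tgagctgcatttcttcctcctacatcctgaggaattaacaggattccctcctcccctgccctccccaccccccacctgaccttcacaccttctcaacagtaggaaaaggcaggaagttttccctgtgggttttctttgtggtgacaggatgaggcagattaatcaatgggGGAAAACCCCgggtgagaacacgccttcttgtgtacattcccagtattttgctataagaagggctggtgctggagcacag
In Cxcl1 and Cxcl2 the capitals are 2 overlapping matches, 1 on each strand, that begin 71 and 97 bases before the start. Cxcl10 held 2 separate matches, the nearer beginning 103 bases before the start, and Ccl20 held 1 on the minus strand at 80 bases. The 23 members with a listed promoter had 26 promoter windows of this length. The consensus was found in 5 of these 26 windows (these 4 members and Ccl9), and in 3.90% of all 32851 windows. A STAT motif (TTCNNNGAA) was found in 2 of the 26 windows (Ccl17 and Cxcl14) and in 7.02% of all windows. An AP-1 motif (TGANTCA) was found in 3 of the 26 (Ccl27a, Ccl9 and Cxcl10) and in 6.75% of all, searched on both strands. A match is a description of the letters and not a measured site. Ccl11, Ccl2, Ccl24, Ccl4, Ccl5, Ccl7, Cxcl11, Cxcl16, Cxcl17 and Cxcl5 had no entry in the promoter table.

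Among sorted cells of the 8 organs, chemokine ligand genes were mostly higher in uterus and lung and mostly lower in kidney, small intestine and stomach. Each organ was set against the mean of the other 7, and a gene was called at a limma adjusted p under 0.05 (Benjamini-Hochberg over all genes tested) and a difference of at least 1 on the log2 scale. All members but Ccl1, 32 of 33, passed the filter on low levels. In uterus cells 21 of the 33 were called higher and 1 lower, where 15.3% and 7.41% of all genes tested were called higher and lower, and the median difference was 2.49 over members and -0.07 over all genes. In lung cells 21 were higher and 3 lower (12.9% and 18.7% of all genes), with a median of 2.10 against -0.06. Salivary gland cells had 14 higher and 3 lower (10.9% and 9.62% of all genes) and a median of 0.81 against -0.14. Prostate cells also had 14 higher and 3 lower (10.5% and 7.29% of all genes), with a median of 0.31 against 0.01, but only 11 calls in all remained without prostate replicate 3, where 17 were made with it.

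The other 4 organs had more members lower than higher. Kidney cells had 2 higher and 21 lower (16.4% and 17.3% of all genes), with a median difference of -1.75 over members and -0.09 over all genes. The 2 higher include Ccl27a, whose probe sets disagreed (below). Stomach cells had 1 higher and 18 lower (9.12% and 10.1% of all genes), with a median of -2.28 against 0.03. Only 2 stomach samples were measured, so this count rests heavily on each of them. Small intestine cells had 4 higher and 18 lower (14.3% and 15.2% of all genes), with a median of -1.49 against 0.03. Untreated liver cells had 4 higher and 15 lower (10.1% and 18.3% of all genes), with a median of -0.93 against -0.10. Each organ is also part of the reference of the other 7, so the 8 comparisons are not independent.

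Cxcl1 and Cxcl2, neutrophil attractants that signal through Cxcr2, split most sorted organs into a high and a low set. Cxcl1 measured 10.18, 12.24, 11.83 and 12.59 in lung, 11.39, 10.54 and 11.66 in prostate, 11.06, 11.12 and 10.92 in salivary gland and 11.12, 10.82, 11.31 and 11.06 in uterus cells. It measured 4.01, 4.17, 3.93 and 3.67 in kidney, 4.12, 3.37 and 3.72 in small intestine and 5.50 and 5.01 in stomach cells. The high and low sets did not overlap, and the 5 untreated liver samples were spread between 6.92 and 10.86. Cxcl1 differed from the mean of the other organs by 3.85 ± 0.48 (standard error) in lung (adjusted p = 4.6e-08) and by -5.27 ± 0.54 in small intestine (adjusted p = 6.1e-10). Cxcl2 showed the same split, with 10.57 to 12.75 in the samples of lung, prostate, salivary gland and uterus and 4.45 to 6.43 in those of kidney, small intestine and stomach. In untreated liver it was 6.14, 9.95, 4.34, 3.61 and 3.78, so that replicate 2 stood above the rest. Its call in salivary gland (2.50 ± 0.95, adjusted p = 0.039) was lost without any of the 3 salivary gland samples and without stomach replicate 2.

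Cxcl15 and Cxcl5, the other 2 neutrophil attractants measured, had another distribution. Cxcl15 measured 10.69, 8.39, 8.06 and 10.05 in lung and 8.95, 7.28, 7.15 and 8.97 in uterus cells, which overlapped, and no more than 6.59 in any sample of the other 6 organs. Its differences were 4.59 ± 0.32 in lung (adjusted p = 1.3e-13) and 3.21 ± 0.32 in uterus (adjusted p = 6.2e-10). Cxcl5 stayed between 2.70 and 4.76 in 27 of the 28 organ samples and reached 8.25 in uterus replicate 1. Its call in uterus (1.7, adjusted p = 0.042) was lost without that sample, where the difference was 0.66, and also without uterus replicate 4, salivary gland replicate 1 or stomach replicate 2.

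The 4 monocyte chemoattractant protein genes (Ccl2, Ccl7, Ccl8 and Ccl12) were all called higher in lung, prostate, salivary gland and uterus cells and all called lower in kidney, untreated liver, small intestine and stomach cells. Ccl7 measured 11.47, 11.51, 11.60 and 10.26 in uterus, 8.86, 11.22, 9.84 and 10.37 in lung, 9.48, 9.56 and 11.27 in prostate and 8.93, 9.19 and 9.41 in salivary gland cells. It was 2.77 to 3.61 in every sample of kidney, small intestine and stomach, and 3.19 to 3.85 in 4 of 5 untreated liver samples, with replicate 2 at 7.53. Ccl2, the main ligand that draws monocytes out of bone marrow, was 8.74 to 11.63 in the high set and 3.12 to 5.04 in kidney, small intestine and stomach, with untreated liver replicate 2 at 7.64. Ccl12 differed most in uterus, with 10.77, 10.78, 10.89 and 10.04 and a difference of 5.04 ± 0.40 (adjusted p = 2.1e-12). Ccl8 reached 13.07, 13.20 and 13.29 in salivary gland cells (5.56 ± 0.84, adjusted p = 2.8e-06). Its call in prostate (2.16, adjusted p = 0.049) was lost in 8 of 10 alternative settings and with 24 of 28 samples left out.

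Ccl3 and Ccl4, the macrophage inflammatory proteins that draw macrophages and T cells, were called higher in uterus, lung and prostate and not called in salivary gland. Ccl4 measured 10.84 to 12.07 in the 4 samples of uterus cells, 11.27, 10.65 and 12.02 in prostate and 8.70, 11.90, 10.14 and 11.43 in lung. In salivary gland it was 8.18, 8.43 and 8.53, a difference of 0.57 that was not called (adjusted p = 0.54). Untreated liver held 3.62 to 4.62 in 4 samples and 6.82 in replicate 2, and overlapped with stomach and small intestine cells, whose lowest samples were 4.13 and 4.55. Ccl3 had differences of 4.63 ± 0.77 in uterus, 3.42 ± 0.87 in prostate and 3.38 ± 0.77 in lung, and -4.71 ± 1.04 in stomach (adjusted p = 1.1e-05, 0.0028, 0.00043 and 9e-04).

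**Figure D2:**
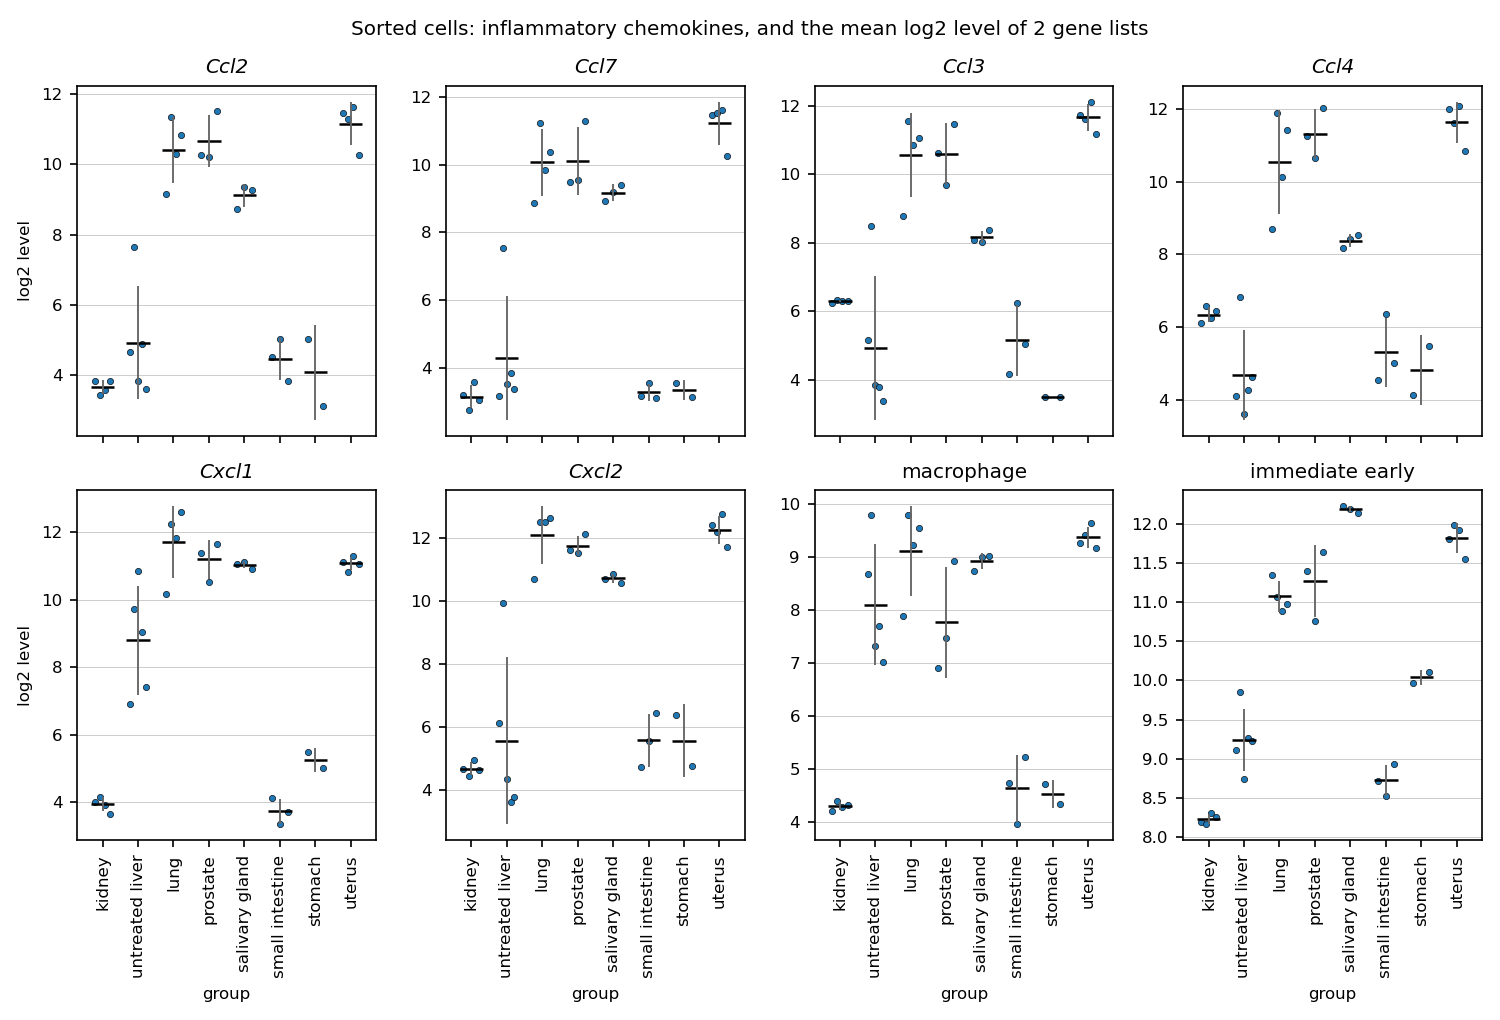
Levels (log2 intensity, y axis) of Ccl2, Ccl7, Ccl3, Ccl4, Cxcl1 and Cxcl2 and the mean levels of the macrophage and immediate early marker lists in sorted cells of the 8 organs. Points are samples, bars are means and error bars are standard deviations. Lung, prostate, salivary gland and uterus cells lie above kidney, small intestine and stomach cells in all 6 genes.

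Other lists were called in the same organs, with untreated liver as an exception for macrophage markers and salivary gland for inducing cytokines. Of 13 macrophage markers measured, 11 were called higher in lung, 10 in salivary gland, 10 in uterus (with 1 lower) and 3 in prostate (1 lower), while 12 were lower in kidney, 11 in small intestine and 8 in stomach. In untreated liver 4 were higher and 2 lower, while Ccl3, Ccl4 and the 4 monocyte chemoattractant genes were called lower there. The mean macrophage level was 9.38 in uterus, 9.12 in lung, 8.93 in salivary gland, 8.11 in untreated liver and 7.77 in prostate cells, and 4.31, 4.64 and 4.54 in kidney, small intestine and stomach. Untreated liver replicate 2 had the highest macrophage mean of its group (9.80, lowest sample 7.02). Immediate early genes, which dissociation of tissue is known to induce, averaged 12.18 in salivary gland, 11.81 in uterus, 11.27 in prostate and 11.07 in lung, against 10.04 in stomach, 9.24 in untreated liver, 8.72 in small intestine and 8.23 in kidney cells. Of 10 measured feedback genes of NF-kB, 10 were higher in lung, 7 in uterus, 6 in salivary gland and 3 in prostate, and 8 were lower in kidney. The mean of these genes was 6.53 to 6.77 in small intestine, 6.19 and 6.34 in stomach and 6.11 to 7.99 in untreated liver samples. It was at least 7.85 in the samples of lung, prostate, salivary gland and uterus. Among inducing cytokines, Il6 differed by 4.84 in prostate, 4.37 in lung and 4.09 in uterus and by -3.51 in kidney cells. The mean of the inducing cytokines was 4.62 to 4.76 in salivary gland, against 5.0 to 6.75 in lung, 5.93 to 6.66 in prostate and 5.86 to 6.49 in uterus samples. The part of these in the chemokine differences was not tested.

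Ccl6 and Ccl9, Ccr1 ligands of mouse macrophages and myeloid cells, were both low in kidney cells. Ccl9 was 3.08, 3.82, 3.22 and 3.47 in kidney cells and at least 6.66 in each of the other 24 samples of the 8 organs. The difference was -6.11 ± 0.33 (adjusted p = 1.2e-17), and the groups did not overlap. Ccl6 was 4.91 to 5.39 in kidney and 11.97, 12.97, 13.06 and 12.55 in lung cells, with stomach at 7.45 and 5.07 overlapping kidney. Ccl5, a T cell and NK cell product, was highest in small intestine cells at 8.13, 11.52 and 9.37 (3.27 ± 0.72, adjusted p = 0.00037) and in salivary gland cells at 8.74, 9.05 and 9.23 (2.50 ± 0.72, adjusted p = 0.0072). The 2 groups overlapped with lung, at 7.90, 9.64, 5.51 and 9.69. Small intestine cells also had 4 of 7 measured NK cell markers and 4 of 7 measured T cell markers higher, with 1 T cell marker lower. Gzma differed there by 6.22, Gzmb by 5.44 and Cd3g by 3.59, and their part in the Ccl5 value was not tested.

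The interferon-induced ligands of Cxcr3, which attract activated T cells, did not share one pattern. Cxcl10 was 9.74, 8.78 and 10.08 in prostate, 9.66, 8.26, 9.28 and 8.77 in uterus and 8.83, 9.01 and 8.69 in salivary gland cells. It was 3.16 to 4.25 in small intestine and stomach and 5.44 to 5.94 in kidney, with untreated liver spread from 4.06 to 9.24. Cxcl9 was most distinct in salivary gland at 8.70, 8.69 and 8.85, above all other organ samples, with a difference of 3.02 ± 0.51 (adjusted p = 1.8e-05). The nearest samples were 8.67 and 8.65 in untreated liver and 8.66 in lung, so the gap was narrow. Cxcl11 was called in untreated liver and in none of the other 7 organs, at 4.57, 5.31, 6.49, 5.85 and 5.51 (1.69 ± 0.27, adjusted p = 2.2e-06, or 1.03 with the mean of its probe sets), and overlapped there with small intestine (6.06, 4.02 and 4.39). RefSeq annotates mouse Cxcl11 as a transcribed pseudogene.

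The remaining CXC members differed in the organs where they were high. Cxcl12, the Cxcr4 ligand of stromal and endothelial cells that retains blood progenitors, was 9.40, 7.28, 9.58, 10.00 and 9.38 in untreated liver and 8.48, 9.31, 9.69 and 9.03 in uterus cells. It was 3.15, 3.39 and 3.47 in small intestine, below every other organ sample (-3.95 ± 0.42, adjusted p = 1.9e-09), and 3.98 and 3.54 in stomach. With the mean of its probe sets the small intestine difference was -2.09, that in stomach was -1.42 in place of -3.46, and the uterus difference of 2.67 became 0.81 and lost its call. Cxcl13, the B cell attractant, was 9.88, 12.38, 11.19 and 12.09 in lung and 10.85, 10.87 and 11.13 in salivary gland cells, and 3.27 to 3.82 in kidney and small intestine. Its receptor gene Cxcr5 was also higher in salivary gland (2.29 ± 0.24) and lung (1.05 ± 0.21), with B cell markers, 3 of 5 measured, higher in both organs. Cxcl14, an epithelial and stromal chemokine, was 7.18, 8.57, 8.22 and 8.55 in uterus (4.30 ± 0.38, adjusted p = 3.7e-11) and 7.63, 5.83, 4.30 and 7.28 in lung, with prostate at 6.33, 4.06 and 3.52. In the other 5 organs no sample exceeded 3.76.

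Cxcl17, a mucosal chemokine, was 11.32 and 11.10 in stomach, 10.46, 10.82 and 10.97 in salivary gland and 11.15, 10.72, 10.11 and 10.80 in uterus cells. The 3 groups overlapped, and no sample of the other organs exceeded 6.71. Its differences were 4.64 ± 0.28, 4.12 ± 0.23 and 4.06 ± 0.20, with adjusted p of 1.3e-15, 1.1e-16 and 1e-17, and it was the only member called higher in stomach. Cxcl16, a membrane-bound Cxcr6 ligand, was lowest in stomach at 5.45 and 5.37 (-2.78 ± 0.62, adjusted p = 0.00094, no overlap) and was 9.05 to 9.24 in kidney cells, where it was called higher (1.5, adjusted p = 0.0058).

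**Figure D3:**
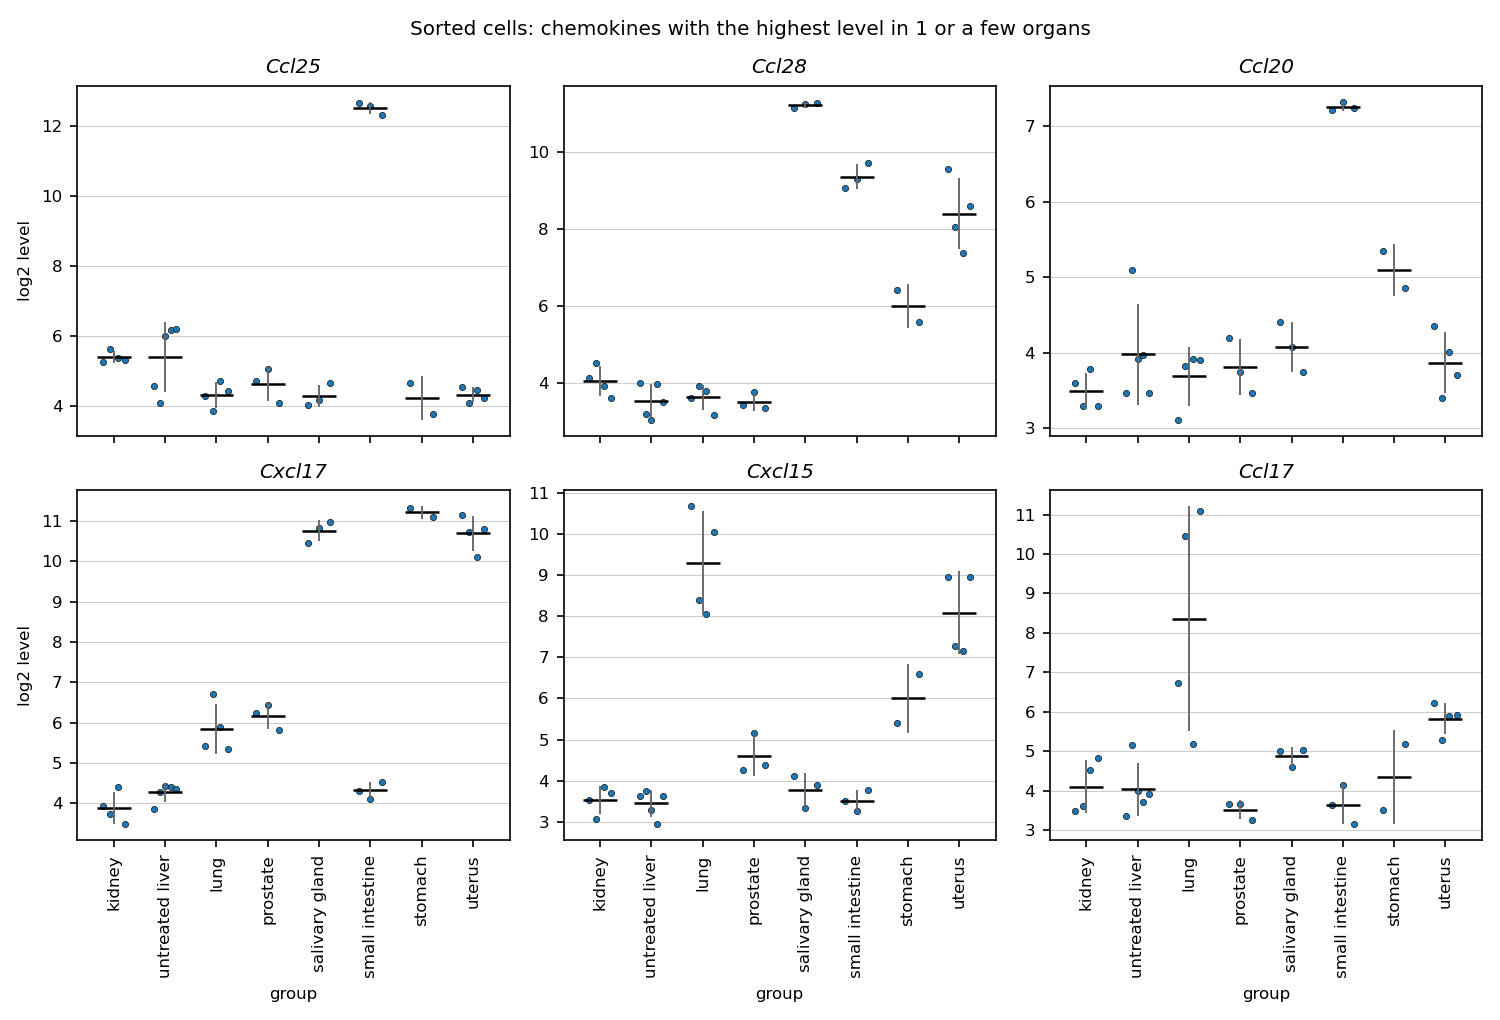
Levels (log2 intensity, y axis) of Ccl25, Ccl28, Ccl20, Cxcl17, Cxcl15 and Ccl17 in sorted cells of the 8 organs, with samples as points, means as bars and standard deviations as error bars. Ccl25 and Ccl20 are above all other organs in small intestine, Ccl28 in salivary gland, and Cxcl17 is high in stomach, salivary gland and uterus cells.

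The CC chemokines of epithelia and mucosa were each high in few organs. Ccl25, the gut-homing ligand of Ccr9, was 12.65, 12.57 and 12.31 in small intestine cells and 3.79 to 6.21 in every other organ sample, a difference of 7.85 ± 0.30 (adjusted p = 5.3e-22). With the mean of the gene's probe sets the difference was 4.45. Ccr9 itself was higher there too (1.38 ± 0.24, adjusted p = 1.8e-05). Ccl28, which recruits antibody-secreting cells to mucosa through Ccr10, was 11.14, 11.26 and 11.28 in salivary gland (5.72 ± 0.27, adjusted p = 6.7e-19), above all other organs. It was 9.07, 9.30 and 9.72 in small intestine, overlapping with uterus at 9.55, 8.06, 7.37 and 8.60, then 6.41 and 5.60 in stomach. In kidney, untreated liver, lung and prostate no sample passed 4.54. With the mean of its probe sets the Ccl28 differences were 3.18 in salivary gland, 1.67 in small intestine and 0.88 in uterus, where the call was lost. Ccl20, the Ccr6 ligand made by epithelium over lymphoid follicles, was 7.21, 7.32 and 7.24 in small intestine (3.26 ± 0.26, adjusted p = 1.4e-12), above every other organ sample, with stomach next at 5.34 and 4.85.

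Ccl27a, a keratinocyte chemokine for Ccr10, was 6.18 to 6.57 in kidney cells and was called higher there by 1.36 (adjusted p = 0.00076). Its 4 probe sets disagreed, with correlations of -0.06 to 0.61 to the one used, and the difference became -0.26 without cross-hybridising probe sets, so no direction is given for it. Ccl17 and Ccl22, the Ccr4 ligands made by dendritic cells, were called in lung and in none of the other 7 organs. Ccl17 measured 6.72, 10.45, 5.19 and 11.08 there (4.03 ± 0.52, adjusted p = 1.2e-07) and Ccl22 6.45, 9.64, 3.66 and 10.67 (3.4 ± 0.55, adjusted p = 4.5e-06). Replicate 3 was the lowest lung sample for both and lay within the range of other organs. All 6 dendritic cell markers were also higher in lung, and their part was not tested.

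Ccl19 and Ccl21b, which guide dendritic and T cells into lymph nodes through Ccr7, were both called higher in lung. Ccl19 measured 6.05, 6.95, 4.44 and 5.84 there (1.90 ± 0.25, adjusted p = 1.5e-07). Ccl21b was 8.51, 6.99, 5.66 and 8.24 in lung and 7.97, 9.10, 8.31 and 9.03 in uterus cells (2.19 ± 0.37 and 3.62 ± 0.37), but near-identical copies of this gene share the probe set, so the value belongs to the copies together. Of the eotaxins, which attract eosinophils through Ccr3, Ccl11 was 6.6, 7.05, 7.30 and 7.69 in uterus and 6.33, 7.0 and 6.67 in prostate cells (3.14 ± 0.37 and 2.58 ± 0.42). Lung replicate 2, at 7.70, was the sole sample of another organ above 4.11. Ccl24 had its highest mean in lung, at 8.40, 10.40, 8.75 and 10.38 (3.39 ± 0.66, adjusted p = 7e-05) and overlapped with prostate, at 7.48, 8.40 and 10.51, and with untreated liver replicate 2 at 9.29.

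Cx3cl1, the membrane-bound ligand of Cx3cr1, was lower in untreated liver than in every other organ sample, with 3.53, 3.46, 4.40, 4.45 and 3.71 against a lowest value of 4.78 elsewhere (-2.20 ± 0.28, adjusted p = 5.6e-08), or -1.06 with the mean of its probe sets. No call was made for it in the other 7 organs.

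Liver cells after DDC treatment were compared with untreated liver cells. After DDC, 5 of 33 members were called higher and 2 lower, of 24 that passed the filter, where 16.3% and 5.49% of all genes were called, so the count of higher members was close to the background. The median difference was -0.01 for members and -0.01 for all genes. Cxcl14 measured 3.24, 3.49, 2.99, 3.23 and 3.54 in untreated liver cells and 7.43, 8.51 and 9.10 (lowest, median and highest of 9) after DDC, which did not overlap. The difference was 5.13 ± 0.39 (adjusted p = 6e-12), or 3.17 with the mean of its probe sets. Cxcl5 measured 3.13 to 3.48 in untreated cells and 3.54, 5.15 and 8.93 after DDC, again without overlap but over a wide range (2.50 ± 0.70, adjusted p = 0.0044). Of 8 epithelial markers 7 were also higher after DDC, with a mean of 5.51 to 6.26 in untreated samples and 5.29 to 9.57 after DDC. The 4 DDC samples with the highest Cxcl5 (6.82 to 8.93) had the 4 highest epithelial means (8.47 to 9.57). Mean Prom1 was 7.04 after DDC and 3.45 in untreated cells, and the mean actin 3′ to 5′ difference was 1.0 against 1.45. The part of these in the DDC differences was not tested. The treated and untreated samples overlapped for the other 5 called members.

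Ccl2 after DDC was 5.79, 7.55 and 8.42, and untreated samples were 4.66, 7.64, 3.83, 4.87 and 3.60 (2.54 ± 0.48, adjusted p = 9.1e-05). Ccl9 rose by 1.54 ± 0.34 (adjusted p = 0.00045) and Ccl6 by 1.64 ± 0.55 (adjusted p = 0.017). The call of Ccl6 was lost without untreated replicate 3, 4 or 5. The B cell attractant Cxcl13 was 7.90, 12.21, 5.80, 9.01 and 7.44 in untreated cells and 3.73, 4.65 and 8.40 after DDC (-2.69 ± 0.79, adjusted p = 0.0068). That call was lost without untreated replicate 2, which held 12.21. Without that sample 11 members were called, 8 higher and 3 lower, of which 6 were among the 7 called with it. Ccl27a, counted among the 2 lower members, differed by -1.04, a call lost in 3 of 9 settings, and its probe sets disagreed. The receptor genes Ccr2 (2.33 ± 0.53), Ccr1 (2.25 ± 0.76) and Cx3cr1 (2.23 ± 0.61) rose with DDC, as did 4 of 13 macrophage markers. The macrophage mean was 9.10 after DDC (7.27 to 10.84) and 8.11 in untreated samples (7.02 to 9.80), and its part was not tested.

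**Figure D4:**
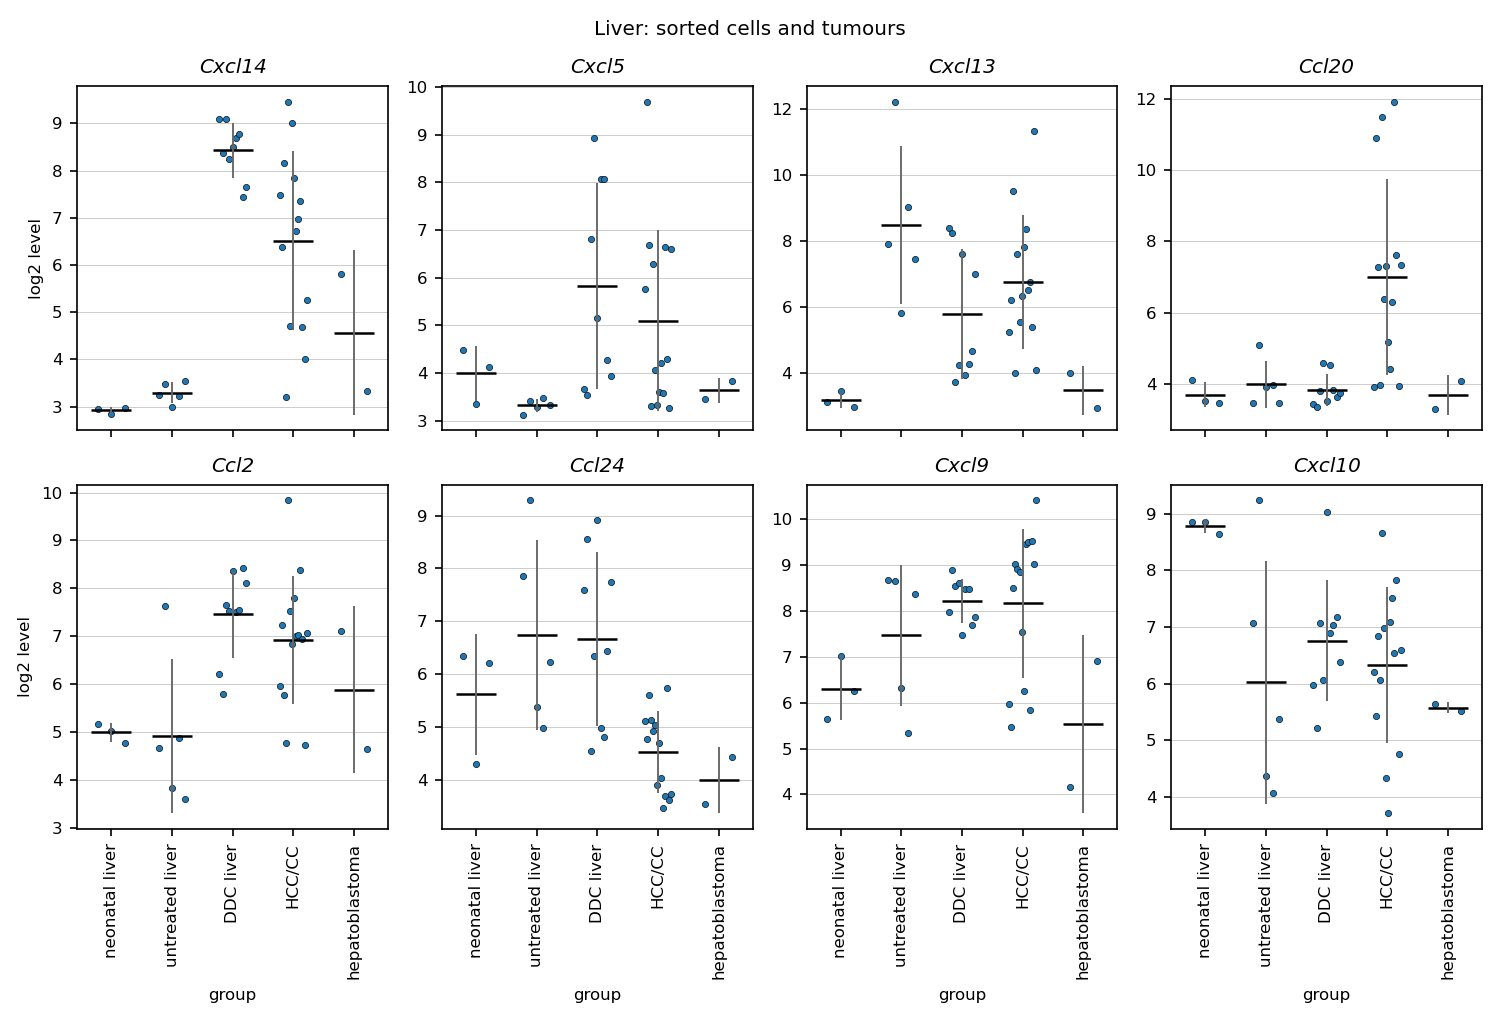
Levels (log2 intensity, y axis) of Cxcl14, Cxcl5, Cxcl13, Ccl20, Ccl2, Ccl24, Cxcl9 and Cxcl10 in neonatal, untreated and DDC-treated liver cells, hepatocellular carcinoma/cholangiocarcinoma (HCC/CC) and hepatoblastoma, with samples as points, means as bars and standard deviations as error bars. Cxcl14 is near 3 in neonatal and untreated cells and between 7.43 and 9.10 after DDC.

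In neonatal liver cells 1 of 33 members was higher and 3 were lower than in untreated liver cells, of 23 that passed the filter, where 22.2% and 8.62% of all genes were called. The median difference was -0.37 for members and -0.01 for all genes. Cxcl13 was 3.12, 3.44 and 2.96 in neonatal cells and at least 5.80 in untreated cells (-5.29 ± 1.04, adjusted p = 0.00011), without overlap. Cxcl16 was 6.22, 5.61 and 5.99 against 6.55 to 9.30 (-1.74 ± 0.62, adjusted p = 0.021), and its call was lost when any of 4 of the 8 samples was left out. Cxcl11 was 4.05, 4.50 and 3.64 against 4.57 to 6.49 (-1.48 ± 0.39, adjusted p = 0.0027), and its call was lost with the mean of its probe sets (-0.85). Cxcl10 was the higher member, at 8.85, 8.86 and 8.64 against 7.07, 9.24, 4.36, 4.06 and 5.37 (2.76 ± 0.72, adjusted p = 0.0022). Markers of neutrophils, 6 of 8 measured, were higher in neonatal cells. So were Ppbp (6.54 ± 0.81) and Pf4 (4.53 ± 0.94), CXC chemokines of platelets and megakaryocytes whose symbols fall outside the rule. Mean Prom1 was 10.29 in neonatal and 3.45 in untreated cells, and their part was not tested.

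The 5 comparisons of a tumour with sorted Prom1-positive cells of its organ did not share 1 direction for these genes. In uterine carcinoma (3 tumours, 4 samples of uterus cells) 1 of 33 members was higher and 14 lower, of 30 that passed the filter, where 8.6% and 10.2% of all genes were called. The median difference was -1.65 for members and 0.04 for all genes. Prostatic adenocarcinoma (8 tumours, 3 samples of prostate cells) had 5 higher and 10 lower of 27 that passed (12.4% and 8.71% of all genes), with a median of -0.42 against -0.05. Its count of higher members was close to the background. Small intestinal adenoma had 10 higher and 3 lower of 29 (13.6% and 8.44% of all genes), with a median of 0.26 against -0.08. Gastric adenoma had 5 higher and none lower of 26 (8.14% and 3.07% of all genes), with a median of 0.59 against -0.05. Cxcl17 (-0.87, unadjusted p = 0.030) was lower there by limma at an unadjusted p under 0.05 without meeting both thresholds. Ccl27a also had such a limma p (-0.76, unadjusted p = 0.0065), but its probe sets disagreed and no direction is given for it. Hepatocellular carcinoma/cholangiocarcinoma had 6 higher and 1 lower of 28 (17.6% and 6.27% of all genes), with a median of 0.02 against 0.03. Both of its counts were close to the background.

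**Figure D5:**
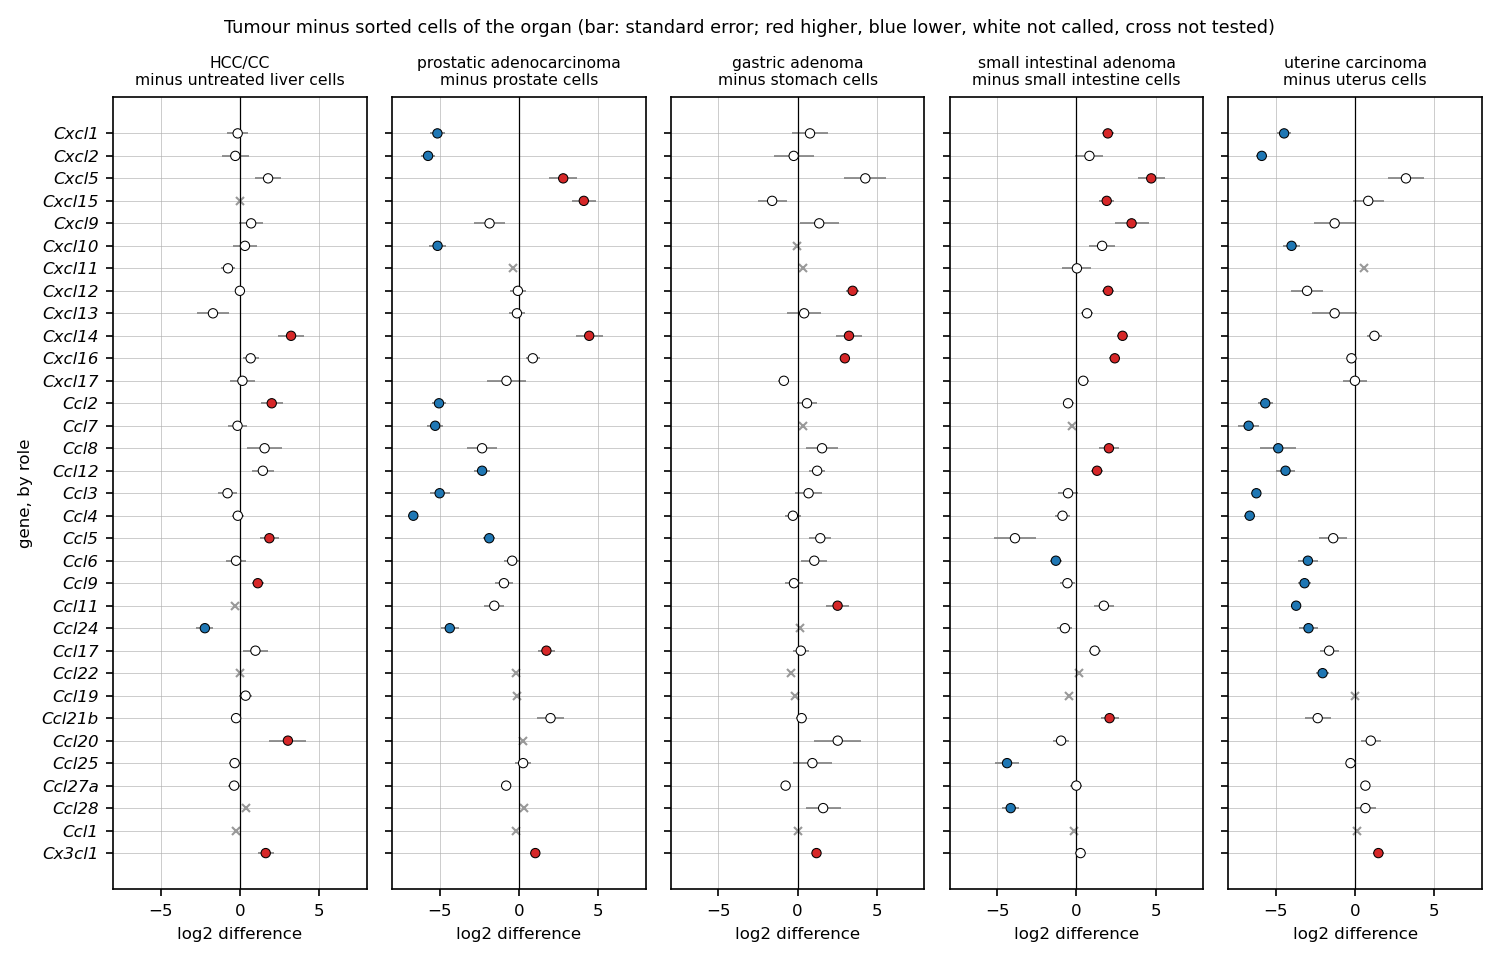
Tumour minus sorted-cell difference (log2, x axis) of each chemokine ligand gene (rows) in 5 organs (panels), with error bars for the standard error. Red points were called higher, blue lower, white not called, and crosses mark genes that did not pass the filter. Ccl4 lies at -6.66 in both the prostate and the uterus panels, and Cxcl5 lies highest in the small intestine panel at 4.72.

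In uterine carcinoma Ccl7, Ccl4, Ccl3 and Cxcl2 had the largest falls, while Cxcl5 and Cxcl15 were not called. Ccl7 was 5.79, 2.92 and 4.74 in the tumours and 10.26 to 11.60 in uterus cells (-6.73 ± 0.64, adjusted p = 0.00043). Ccl4 was 5.48, 4.81 and 4.60 against 10.84 to 12.07 (-6.66 ± 0.34, adjusted p = 3.4e-05). Ccl3 was 5.82, 5.33 and 5.09 against 11.17 to 12.11 (-6.24 ± 0.26, adjusted p = 1.9e-05). These macrophage and monocyte attractants did not overlap between tumours and cells. Cxcl2 was 6.84, 5.55 and 6.70 against 11.71 to 12.75 (-5.90 ± 0.35, adjusted p = 6.8e-05). The other 10 members that fell (Ccl2, Ccl8, Cxcl1, Ccl12, Cxcl10, Ccl11, Ccl9, Ccl6, Ccl24 and Ccl22) had differences from -5.68 to -2.06, also without overlap. Overlap was not counted over all genes, so its absence is not read as a trait of these members. Cx3cl1 was the member that rose, with 6.89, 7.85 and 7.04 against 5.94, 5.83, 5.0 and 6.42 (1.46 ± 0.37, adjusted p = 0.021), a call that was lost without uterine carcinoma replicate 2.

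The receptor genes Ccr2 (-5.41 ± 0.47), Cx3cr1 (-3.78 ± 0.30) and Ccr1 (-2.86 ± 0.40) fell in uterine carcinoma as well. So did 11 of 13 macrophage markers, all 9 immediate early genes measured and 6 of 10 feedback genes of NF-kB. The macrophage mean was 6.72 in the tumours (6.32 to 7.43) and 9.38 in the cells (9.17 to 9.64), and the immediate early mean was 7.53 against 11.81. Their part in the fall of the ligands was not tested.

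In prostatic adenocarcinoma Ccl4, Cxcl2, Ccl7 and Cxcl1 had the largest falls. Ccl4 was 4.18, 4.48 and 5.33 (lowest, median and highest of 8 tumours) against 11.27, 10.65 and 12.02 in prostate cells (-6.66 ± 0.31, adjusted p = 4.5e-07). Cxcl2 was 4.90, 6.0 and 7.24 against 11.63, 11.54 and 12.12 (-5.73 ± 0.45, adjusted p = 1.2e-05). Ccl7 was 3.65, 4.79 and 5.89 against 9.48, 9.56 and 11.27 (-5.28 ± 0.49, adjusted p = 2.7e-05). These attractants of neutrophils and macrophages were picked for having no overlap, which was not counted over all genes. Cxcl1 was 4.65, 6.37 and 7.14 against 11.39, 10.54 and 11.66 (-5.14 ± 0.48, adjusted p = 2.7e-05). Cxcl10, Ccl2, Ccl3, Ccl24, Ccl12 and Ccl5 had differences of -5.13 to -1.87, with the call of Ccl5 (-1.87) lost in 1 fit over all 95 samples. Of the measured lists, 8 of 9 immediate early genes, 6 of 13 macrophage markers and 5 of 10 feedback genes of NF-kB (1 was higher) were lower, Ifnb1 and Il6 differed by -5.27 and -5.21, and their part was not tested.

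Of the 4 neutrophil attractants, Cxcl1 and Cxcl2 fell and Cxcl15 and Cxcl5 were among the 5 members that rose in prostatic adenocarcinoma. Cxcl14 was 7.15, 9.40 and 10.61 in tumours and 6.33, 4.06 and 3.52 in cells (4.44 ± 0.86, adjusted p = 0.0024). Cxcl15 was 7.22, 8.09 and 10.59 against 4.26, 5.17 and 4.39 (4.10 ± 0.76, adjusted p = 0.0018). Both were separated from prostate cells in every sample. Cxcl5 (2.80, adjusted p = 0.025) and Ccl17 (1.74, adjusted p = 0.020) lost their calls without any 1 of the 3 prostate samples, and Cx3cl1 (1.04, adjusted p = 0.0064) was lost in 4 of 10 alternative settings. Fibroblast markers, 4 of 8 measured, were higher in these tumours.

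In small intestinal adenoma Ccl25 and Ccl28, both high in small intestine cells, fell, while 10 other members rose. Ccl25 was 7.57, 10.04 and 6.78 in the adenomas and 12.65, 12.57 and 12.31 in the cells (-4.38 ± 0.75, adjusted p = 0.0061, or -2.73 with the mean of its probe sets). Ccl28 was 4.23, 6.42 and 5.0 against 9.07, 9.30 and 9.72 (-4.15 ± 0.52, adjusted p = 0.0022, or -2.24 with that mean). Neither overlapped, while Ccl20, at 5.12, 7.42 and 6.30 against 7.21, 7.32 and 7.24, overlapped and was not called (-0.97, adjusted p = 0.19). The neutrophil attractant Cxcl5 was 7.89, 5.58 and 9.29 against 2.70, 2.75 and 3.15 (4.72 ± 0.84, adjusted p = 0.0071). Cxcl14 was 6.73, 5.57 and 6.50 against 3.25, 3.05 and 3.76 (2.91 ± 0.37, adjusted p = 0.0022). Cxcl16, Cxcl12 and Cxcl1 rose by 2.42, 2.0 and 1.98. The call of Cxcl12 was lost with the mean of its probe sets (0.71) and that of Cxcl1 in 1 fit over all 95 samples. Differences were 1.30 to 3.48 for Ccl21b, Ccl8, Cxcl15, Ccl12 and Cxcl9, each of these 5 with its call lost for at least 3 of the 6 samples left out in turn, and that of Ccl8 (2.05) also in 8 of 9 settings. Ccl6 fell by 1.30, a call lost for 4 of the 6. The count of 13 calls became 8 without any of the 3 samples of small intestine cells and 6 with the filter at the 60th percentile. Fibroblast markers, 5 of 8 measured, were higher and 4 of 9 immediate early genes lower (1 was higher), and their part was not tested.

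Gastric adenoma was compared with only 2 stomach samples. Cxcl12 was 5.91, 7.39 and 7.79 (lowest, median and highest of 7) against 3.98 and 3.54 (3.47 ± 0.43, adjusted p = 0.0019, or 1.23 with the mean of its probe sets). Cxcl16 was 7.5, 8.5 and 8.94 against 5.45 and 5.37 (2.98 ± 0.32, adjusted p = 0.0010). Without 1 of the 2 stomach samples the other was assumed to vary like the adenomas, and these 2 calls were the ones made in both such fits. Cxcl14 (4.49, 6.63 and 7.89 against 3.32 and 3.07, a difference of 3.24), Ccl11 (2.52) and Cx3cl1 (1.19) were also called, with adjusted p of 0.029, 0.043 and 0.029, and none of the 3 remained called without stomach replicate 1 or without replicate 2. The count of 5 also became 2 without gastric adenoma replicate 7 and 3 without replicate 3 or 5. Cxcl5 was 3.89, 9.01 and 9.63 in adenomas against 4.25 and 3.59, but the difference of 4.27 was not called (adjusted p = 0.051). Fibroblast markers, 4 of 8 measured, were higher and 7 of 9 immediate early genes lower, and their part was not tested.

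In hepatocellular carcinoma/cholangiocarcinoma no called member was separated from untreated liver cells in every sample. Cxcl14 was 3.20, 6.85 and 9.46 (lowest, median and highest of 14) against 2.99 to 3.54 (3.22 ± 0.80, adjusted p = 0.0035), or 1.98 with the mean of its probe sets. Ccl24, the eotaxin, fell from 7.85, 9.29, 5.38, 4.98 and 6.23 to 3.46, 4.73 and 5.74 (-2.22 ± 0.54, adjusted p = 0.0029). Ccl20 had the widest range, at 3.92, 6.83 and 11.93 against 3.46 to 5.10, and its call (3.02 ± 1.17, adjusted p = 0.043) was lost with 10 of 19 samples left out. The 3 tumours with the highest Ccl20 (10.91, 11.50 and 11.93) had the 3 highest means of epithelial markers (11.42, 8.84 and 10.62) and of NF-kB feedback genes (8.61, 8.62 and 9.01). Of 8 epithelial markers 4 were higher in these tumours, and their part was not tested. Ccl2, Ccl5, Cx3cl1 and Ccl9 rose by 2.0, 1.85, 1.62 and 1.12. The call of Cx3cl1 was lost with array weights (1.43) and with the mean of its probe sets (0.71), and that of Ccl9 with quantile normalization. Of the 7 calls, 3 were kept without untreated liver replicate 3 (Cxcl14, Cx3cl1 and Ccl24) and 4 without replicate 4 (these and Ccl2). The receptor genes Ccr1 (2.17), Cx3cr1 (1.8) and Ccr2 (1.78) rose, as did 6 of 8 fibroblast markers, and 8 of 9 immediate early genes fell (1 rose). Their part was not tested. The 2 hepatoblastomas measured 5.80 and 3.34 for Cxcl14 and 10.22 and 7.73 for Cxcl1.

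Some members were called in opposite directions in 2 organs. Cxcl1 fell in prostatic adenocarcinoma and uterine carcinoma and rose in small intestinal adenoma. Its difference in prostatic adenocarcinoma minus that in small intestinal adenoma was -7.13 ± 0.71, and that in small intestinal adenoma minus that in uterine carcinoma was 6.48 ± 0.62. Ccl2 rose in hepatocellular carcinoma/cholangiocarcinoma and fell in the same 2 carcinomas, by 7.05 ± 0.98 (prostatic) and 7.68 ± 1.12 (uterine) between organs. These pairs were chosen for their opposite calls in the same samples, so the values are a description with no test.

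Tumours were also compared with tumours, where neither side was sorted. In gastric adenocarcinoma 6 of 33 members were higher and 3 lower than in gastric adenoma, of 27 that passed the filter (13.8% and 11.5% of all genes), with a median of 0.22 against -0.03. Ccl6 was 11.94, 12.20, 11.75 and 11.18 in adenocarcinoma against 6.16, 6.84 and 9.46 in adenoma (4.46 ± 0.65, adjusted p = 3.5e-07). Ccl28 was 3.64, 3.29, 3.24 and 3.46 against 4.47, 7.69 and 9.47 (-4.20 ± 0.54, adjusted p = 2.4e-08, or -2.17 with the mean of its probe sets). So a myeloid ligand was higher and a mucosal ligand lower in the carcinomas, both picked for having no overlap. Cxcl13 was 8.63, 9.46, 8.08 and 10.38 against 3.19, 5.10 and 7.18 (4.07 ± 1.05, adjusted p = 0.0014), and Ccl9 9.69, 10.02, 9.56 and 8.71 against 5.33, 6.98 and 7.43 (2.98 ± 0.55, adjusted p = 2.2e-05). Ccl17, Ccl12 and Ccl24 were higher by 2.24, 2.10 and 1.48, and Ccl20 and Ccl11 differed by -3.02 and -1.48, the last 2 with calls lost for 5 and 6 of 11 samples left out. Macrophage markers, 11 of 13 measured, were higher in adenocarcinoma (mean 7.26, 6.79 to 7.78) than in adenoma (5.24, 4.14 to 6.11), and their part was not tested.

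Between large and small intestinal adenomas 3 members were higher in the large intestine and 1 lower, of 30 that passed the filter (6.64% and 6.37% of all genes), with a median of 0.26 against 0.02. Ccl28 was 7.44, 8.55, 8.0, 7.68 and 8.42 in large against 4.23, 6.42 and 5.0 in small intestinal adenoma (2.80 ± 0.63, adjusted p = 0.0014). Cxcl12 was 8.46, 8.58, 8.25, 7.62 and 8.43 against 6.13, 5.01 and 4.87 (2.93 ± 0.61, adjusted p = 0.00066, or 1.79 with the mean of its probe sets). Mucosal Ccl28 and stromal Cxcl12 were among the members picked for having no overlap between the 2 sites. Cxcl13 was 7.87, 6.67, 8.24, 6.32 and 11.80 against 5.0, 4.19 and 3.59 (3.92 ± 1.22, adjusted p = 0.018), and Cxcl15 was 2.95 to 3.72 against 5.26, 4.54 and 6.44 (-2.10 ± 0.69, adjusted p = 0.025). These last 2 calls were lost without small intestinal adenoma replicate 3, which left 2 calls, and that of Cxcl13 without large intestinal adenoma replicate 5. The call of Cxcl15 was also lost with the mean of its probe sets. Ccl25 did not differ detectably, at 10.70, 6.41, 9.63, 9.93 and 6.66 against 7.57, 10.04 and 6.78 (0.54, adjusted p = 0.67). Fibroblast markers, 4 of 8 measured, were higher in the large intestine.

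Squamous cell carcinomas (perineal and perioral, 7 tumours) were compared with the mean of 5 internal carcinoma groups. Of 33 members 3 were higher and 9 lower, of 32 that passed the filter (10.7% and 13.8% of all genes), with a median of -0.03 against -0.04. Ccl21b was 7.72 to 10.44 in the 7 tumours (2.68 ± 0.47, adjusted p = 4.1e-06), and Ccl8 and Ccl11 were higher by 1.72 and 1.37. The largest negative differences were those of Cxcl15 (-4.23 ± 0.42, adjusted p = 4.9e-12) and Cxcl17 (-4.11 ± 0.69, adjusted p = 1.9e-06). Both are made by internal mucosal epithelia, and none of these 7 squamous tumours exceeded 3.92 for Cxcl15 or 3.89 for Cxcl17. The periorbital tumour, which entered no test, was 3.64 for Cxcl15 and 7.94 for Cxcl17. Not all internal carcinomas were high. For Cxcl15, hepatocellular carcinoma/cholangiocarcinoma was 3.0 to 3.99 and gastric adenocarcinoma was 3.27 to 4.80. For Cxcl17, hepatocellular carcinoma/cholangiocarcinoma replicate 2 was 10.66 and the other tumours of that group 3.42 to 4.61. Prostatic adenocarcinoma replicate 8 was 11.13 and the others 3.97 to 5.24. Ccl6, Cxcl13, Ccl9, Ccl17, Cx3cl1, Ccl5 and Ccl12 differed by -2.41 to -1.22, and every called member overlapped with at least 1 internal carcinoma. Macrophage markers, 9 of 13, and interferon response genes, 9 of 12 measured, were lower as well, and their part was not tested. Ccr9, the receptor of Ccl25, was higher in the squamous tumours (1.89 ± 0.26, adjusted p = 3.8e-08), while Ccl25 was not called there (-0.27, adjusted p = 0.66).

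The metastases and the periorbital tumour were single samples and entered no test. Ccl20 was 11.92 and 12.09 in the intestine and lung metastases of hepatocellular carcinoma/cholangiocarcinoma, near the highest of the 14 primary tumours (11.93). Cxcl15 was 8.21 in the lung metastasis of hepatoblastoma and 9.52 in that of hepatocellular carcinoma/cholangiocarcinoma, and at most 3.99 in the primaries of both. These 2 lung metastases also had lung epithelium markers at a mean of 7.85 and 9.51, against 2.89 in the intestine metastasis. Cxcl17 was 12.39 and 9.90 in the abdomen and liver metastases of uterine carcinoma, within the range of the primaries (12.40, 10.98 and 8.66). Ccl28 was 8.78 and 5.11 there, and the liver metastasis lay below the primaries at 10.33, 8.80 and 7.96.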

How the data were processed

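The 103 arrays (Affymetrix mouse arrays) were analysed as deposited. Values were deposited as log2 intensities and were made with Partek 6.6, per the submitters' processing notes. How background was corrected, and how arrays were normalized and summarized, is not given in the sources used here. Of 45141 probe sets, 104 were controls, 551 named several genes, 15588 lay outside the annotation used and 28898 named 1 gene, of which 28689 matched RefSeq by gene number. The probe set of the highest mean stood for each gene.

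Genes were kept where a compared group's mean exceeded the 40th percentile. Comparisons used limma 3.58.1 in R 4.3.3 (lmFit, eBayes with an intensity trend) with Benjamini-Hochberg adjustment over all genes tested. Sorted cells were fitted over 40 samples, tumours against sorted cells over the 2 groups, and tumours over 55 primary tumours. The 8 groups of 1 sample entered no fit. Tables were handled with data.table (version 1.17.8), pandas 2.3.3 and numpy 2.4.6 (Python 3.11.15), and plots with matplotlib 3.10.9. The steps were tested on simulated data.

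Per comparison, up to 4 called members with the largest difference among those whose samples did not overlap are described in full, other members by difference, range or count, and other genes only from lists, up to 3 each. The 33 members and the gene lists were chosen with earlier results of these data known. Alternatives were no filter, the 60th percentile, quantile normalization, median centring, averaging all probe sets of a gene, leaving out cross-hybridising probe sets, no trend, a robust prior, array weights, 1 fit over 95 samples, and each sample left out. The number of arrays limits the precision.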

Additional observations from a re-analysis of the deposited data

Results flagged for a closer look

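Members picked to be described in full were checked for a sample apart in their compared groups of 4 to 10 samples. In 2 of these 33 pairs of a member and a group, 1 sample stood apart from the rest by Dixon's criterion. Chance meets that criterion in about 1 in 20 groups. Other pairs were not checked, such as Ccl7 in untreated liver cells, with replicate 2 at 7.53 and the others at 3.19 to 3.85. Cxcl12 was 5.91 in gastric adenoma replicate 1, with the other adenomas at 7.20 to 7.79. Ccl7 was 10.26 in uterus cells replicate 4, with the other uterus samples at 11.47 to 11.60.

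In 10 cases a member was called higher in a tumour of 1 organ and lower in a tumour of another. They were chosen for those opposite calls in the same samples, so the differences between organs (first minus second, ± standard error) are given as a description with no test. Between small intestinal adenoma and uterine carcinoma the difference was 5.70 ± 0.81 for Ccl12, 6.48 ± 0.62 for Cxcl1 and 6.90 ± 1.48 for Ccl8, whose call in small intestinal adenoma was lost in 8 of 9 settings. Between prostatic adenocarcinoma and small intestinal adenoma it was -3.62 ± 0.73 for Ccl12 and -7.13 ± 0.71 for Cxcl1. Hepatocellular carcinoma/cholangiocarcinoma differed from prostatic adenocarcinoma by 7.05 ± 0.98 for Ccl2 and 3.72 ± 0.85 for Ccl5. It differed from uterine carcinoma by 7.68 ± 1.12 for Ccl2 and 4.31 ± 0.67 for Ccl9. Gastric adenoma differed from uterine carcinoma by 6.25 ± 0.88 for Ccl11.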

How the results depend on the processing

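Of 254 called member differences, 181 were kept in every setting that tested the gene, of 10, and with each sample left out (93 fits). Losses numbered 43 in at least 1 setting and 58 with a sample left out. A setting that filtered a gene out or left it no probe set was not counted as a loss. Ccl21b in lung cells, for example, was tested in 9 settings. Ccl27a in kidney cells turned from 1.36 to -0.26 without cross-hybridising probe sets. With array weights the members called became 11 in place of 7 after DDC, 7 in place of 4 in neonatal liver and 2 in place of 5 in gastric adenoma, which had 3 when all probe sets of a gene were averaged, and small intestinal adenoma had 6 in place of 13 with the filter at the 60th percentile. With a sample left out the calls ranged from 5 to 11 after DDC, 2 to 7 in gastric adenoma, 3 to 8 in hepatocellular carcinoma/cholangiocarcinoma, 2 to 5 between large and small intestinal adenoma, 11 to 19 in prostate cells and 8 to 14 in small intestinal adenoma. Quantile normalization lowered the share of higher calls among all genes called from 74.8% to 59.5% after DDC, 72.0% to 58.6% in neonatal liver, 72.6% to 49.7% in gastric adenoma, 73.7% to 59.2% in hepatocellular carcinoma/cholangiocarcinoma, 58.8% to 45.2% in prostatic adenocarcinoma and 61.7% to 50.1% in small intestinal adenoma. It moved the share by under 10 percentage points, up or down, in the other 12 comparisons, for example from 51.0% to 59.3% between large and small intestinal adenoma and from 47.5% to 53.4% in stomach cells. The cause of these changes was not tested. Groups of 2 or 3 samples, probe sets shared by near-identical genes and low signals limit what can be called.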
